A study of Mus musculus with 35 samples.

Results

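The cytosolic and mitochondrial chaperones were followed in ovarian surface epithelial cells of the mouse (MOSE cells) through 9 culture passages. Genes were taken by symbol from the array annotation: every Hsp and Dnaj gene, the Cct subunits, Bag1 to Bag6, Tcp1, Cryab, St13 and Stip1, with Hspa5, Hsp90b1, Dnajc3 and the proteoglycan Hspg2 left out. The rule used no measured value and gave 54 genes on 96 cDNA clones, of 7390 named genes on 15254 clones. By symbol they fall into 2 HSP90 genes, 8 HSP70 and HSP110 genes, 23 J proteins, 7 subunits of the chaperonin TRiC, the mitochondrial chaperonin gene Hspd1, 3 small heat shock genes, 6 BAG genes and 4 others (St13, Stip1, Hspbp1 and Hspbap1). Not every symbol fits the cytosol or the mitochondrion. For example, Dnajb9, Dnajb11 and Dnajc10 encode proteins of the endoplasmic reticulum lumen and Hspa13 a microsomal one. Hspbap1 is named for its association with Hspb1 and is not known as a chaperone.

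Surface epithelial cells of C57BL/6 females, 8 weeks old at isolation, were kept in serial culture, and RNA was taken at 9 passages between the second (p2) and p28 without any treatment. Each passage gave a single RNA preparation, which was labeled in both dye orientations and hybridized on 4 cDNA arrays, or 3 for p7, against RNA of a whole newborn male C57BL/6 mouse. The 35 arrays are therefore technical replicates, so p-values measure the spread between hybridizations, and culture, passage and time cannot be told apart. Values are log2(MOSE/reference), in which 0 is the level of the whole newborn, and a difference is the log2 ratio at a passage minus the log2 ratio at p2, the earliest passage and the baseline of the study.

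Chaperones keep other proteins folded. HSP70 binds unfolded stretches under the direction of J proteins, which deliver substrates and trigger ATP hydrolysis, and BAG proteins release the bound nucleotide. Stip1 and St13 link HSP70 with HSP90, which matures kinases and steroid receptors, and the TRiC ring folds actin and tubulin. Hspd1 forms the folding chamber of the mitochondrial matrix, and small heat shock proteins hold damaged proteins until ATP-driven chaperones refold them. Many of these genes are induced when heat shock factor binds heat shock elements, inverted repeats of the unit GAA, in their promoters.

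To show what such elements look like in members on which the results below turn, promoter stretches upstream of the annotated start were read from RefSeq (GRCm38.p6), 5′ to 3′ on the gene's strand. Capitals mark heat shock elements with 2 or more units. Dnajb6, called lower along the passages, carries an element of 3 units at chr5:29735822-29735894 (+), 46 bases before the start. Hspd1, below the newborn at all 9 passages, carries a longer run at chr1:55088029-55088106 (−), 144 bases before it. Dnaja1, called lower at p28, carries only a 2-unit element at chr4:40722314-40722381 (+). Hspb1, called higher at p10, carries a pair of 2-unit elements at chr5:135887772-135887859 (+). In Dnaja2, called lower at 3 passages, the stretch before the start at chr8:85555362-85555461 (−) holds none.
Dnajb6: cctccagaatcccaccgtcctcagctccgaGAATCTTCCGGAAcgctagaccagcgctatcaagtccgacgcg
Hspd1: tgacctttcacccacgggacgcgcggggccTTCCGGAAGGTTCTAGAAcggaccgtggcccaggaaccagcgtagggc
Dnaja1: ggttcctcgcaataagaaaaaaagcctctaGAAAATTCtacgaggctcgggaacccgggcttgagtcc
Hspb1: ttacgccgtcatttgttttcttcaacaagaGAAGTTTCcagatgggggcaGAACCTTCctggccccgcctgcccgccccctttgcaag
Dnaja2: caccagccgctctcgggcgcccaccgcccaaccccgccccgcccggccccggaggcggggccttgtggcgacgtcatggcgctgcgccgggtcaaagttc

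Promoter windows of 250 bases before to 50 after a start were found for 40 of the 54 genes. Both strands were searched for the 3-unit element (GAA and TTC in turn, starting with either, with any 2 bases between units), the 2-unit element of the same build, which lies within every 3-unit one, and CCAAT. A 3-unit element was present in Dnajb6, Hspd1 and Hsph1, which is 7.5% of the matched members, against 0.662% of all 27025 genes. A 2-unit element was present in 11 members (27.5%, against 17% of all genes), and CCAAT in 13 (32.5%, against 41.1%). Of the 5 matched genes with a clone called lower at a late passage or along the passages (Bag3, Dnaja1, Dnaja2, Dnajb6 and Dnajb9), 1 held a 3-unit and 3 a 2-unit element. Hspa8, Hsp90aa1 and Cryab were not matched. A match is a description of letters, not of a bound site.

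Signal was sufficient for nearly all members: 94 of the 96 member clones lay above background on all 35 arrays, and member clones had a median SD of 0.233 over the arrays of 1 passage. Before scaling, the spread of log2 ratios on an array (median absolute deviation) ran from 0.248 to 0.728, with passage means of 0.306 at p2, 0.422 at p14, 0.619 at p23 and 0.447 at p28, and scaling set these spreads equal. Arrays of p5 held the largest share of spots marked by the scanner program, up to 20.1% on 1 array. Of 13 surface epithelial and mesothelial markers 9 were on the array, and their passage medians ran from 0.40 to 1.66, above the newborn, whereas the medians of 5 stromal markers ran from -2.24 to -0.79 and those of 6 erythroid markers from -3.28 to -1.38. Single genes went against these medians at p2 and p28. Stromal Dcn stood above the newborn (0.70 and 0.076), and epithelial Cdh1 below it (-0.87 and -0.40). Both markers found of 7 leukocyte genes and both of 5 endothelial genes stayed below the newborn at p2 and p28. Of 7 granulosa markers 4 were found, with passage medians of -0.055 to 0.17. Of these, 3 stood above the newborn at p2 and 1 at p28, and Inha, an inhibin subunit, went from 1.12 to -0.061. At p14 the keratin gene Krt8 was called higher than at p2, and at p23 Wt1, a transcription factor of mesothelium, was called lower. The other marker calls were stromal Pdgfra higher at p18, Hba-a1 higher at p5 and p28, and the embryonic globin genes Hbb-y (lower at p5, p10 and p14) and Hba-x (lower at p5 and p10). Their part in the chaperone results was not tested, and with bulk RNA, fewer cells of a type and less RNA per cell cannot be told apart.

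As a group, chaperones were split in direction, as were genes over the whole array. Between 23 and 30 of the 54 genes lay above p2 at each of the 8 later passages, against 3852 to 4087 of all 7390 genes. At p14, 28 lay above and 26 below, with a median difference of 0.0058 against 0.027 over all 7390 genes, and at p28 the split was 27 to 27, with a median of -0.0025 against 0.041. The lowest medians were at p18, where 31 genes lay below p2 (-0.057 against 0.015 over all genes), and at p23, where 28 did (-0.035 against 0.047). The p23 median depended on scaling. Without scaling it was 0.089, with 24 genes below p2 (0.026 over all genes). With scaling within each passage it was 0.060 (0.0092 over all genes), and with the authors' log2 ratios 0.045 (0.001 over all genes). The p18 median stayed negative under each (-0.0445, -0.0431 and -0.0105). Of the 54, 9 genes had a clone called against p2 at 1 or more of the 8 later passages (limma, Benjamini-Hochberg adjusted p under 0.01 over all clones), 7 of them lower and 2 higher, in 17 calls on 12 clones. Those that fell were Hsp90aa1, Hspa8, Dnaja1, Dnaja2, Dnajb9, Bag3 and Cryab, and those that rose were Hspb1 and Tcp1. The other 45 genes passed at no passage. The share of all 7390 genes called at 1 or more passages was not computed, and a gene with several clones had more chances of a call. By gene, p14 had 1 member higher and 1 lower, against 84 and 67 of all genes. At p23, 0 were higher and 4 lower, against 49 and 97, and at p28, 0 and 5, against 169 and 158.

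At p5, 1 of 96 member clones was called, lower (background 0.315% of all clones, 0.177% lower). None was called at p7 (background 0.0262%), where 14 had an unadjusted p under 0.05, against 2237 of all 15254 clones. At p10, 1 was called, higher (background 0.262%, 0.0787% higher). At p14, 3 were called (background 1.34%), 1 higher (background 0.721%) and 2 lower (background 0.623%). None was called at p18 (background 0.223%), where 24 had an unadjusted p under 0.05, against 2213 of all 15254 clones. At p23, 5 were called, all lower (background 1.34%, 0.918% lower). At p25, 1 was called, lower (background 1.02%, 0.479% lower), and at p28, 6 were called, all lower (background 2.98%, 1.48% lower). The share of members was 3.12% at p14, 5.21% at p23 and 6.25% at p28, each above the background, though it rests on few clones and several clones of the same genes. All 8 comparisons used the same p2 arrays, so their calls are not independent of each other. The counts moved when a single array was left out: p5 kept its call except without the first reverse p5 array, p10 kept its call only without the first reverse p2 array or the second direct p10 array, p23 kept 5 calls only without its own second direct array and 0 or 1 otherwise, p14 had 0 or 1, p25 had 0 in each case, and p28 had 1 to 3. Arrays whose names and numbers run together were taken as array groups, which the labels do not call batches. Only p18 had arrays in the group of p2. With the groups as a block, p7, p10, p14, p23 and p25 had 0 member calls and p18 had 5, but the link from p2 to the other groups rests on 1 array of p18 and 1 of p25 that were placed by name alone. All arrays of p5 and all of p28 formed a group of their own, so array group and passage cannot be told apart there. In the heat map of differences, the blue rows stand out singly among pale ones.

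**Figure D1:**
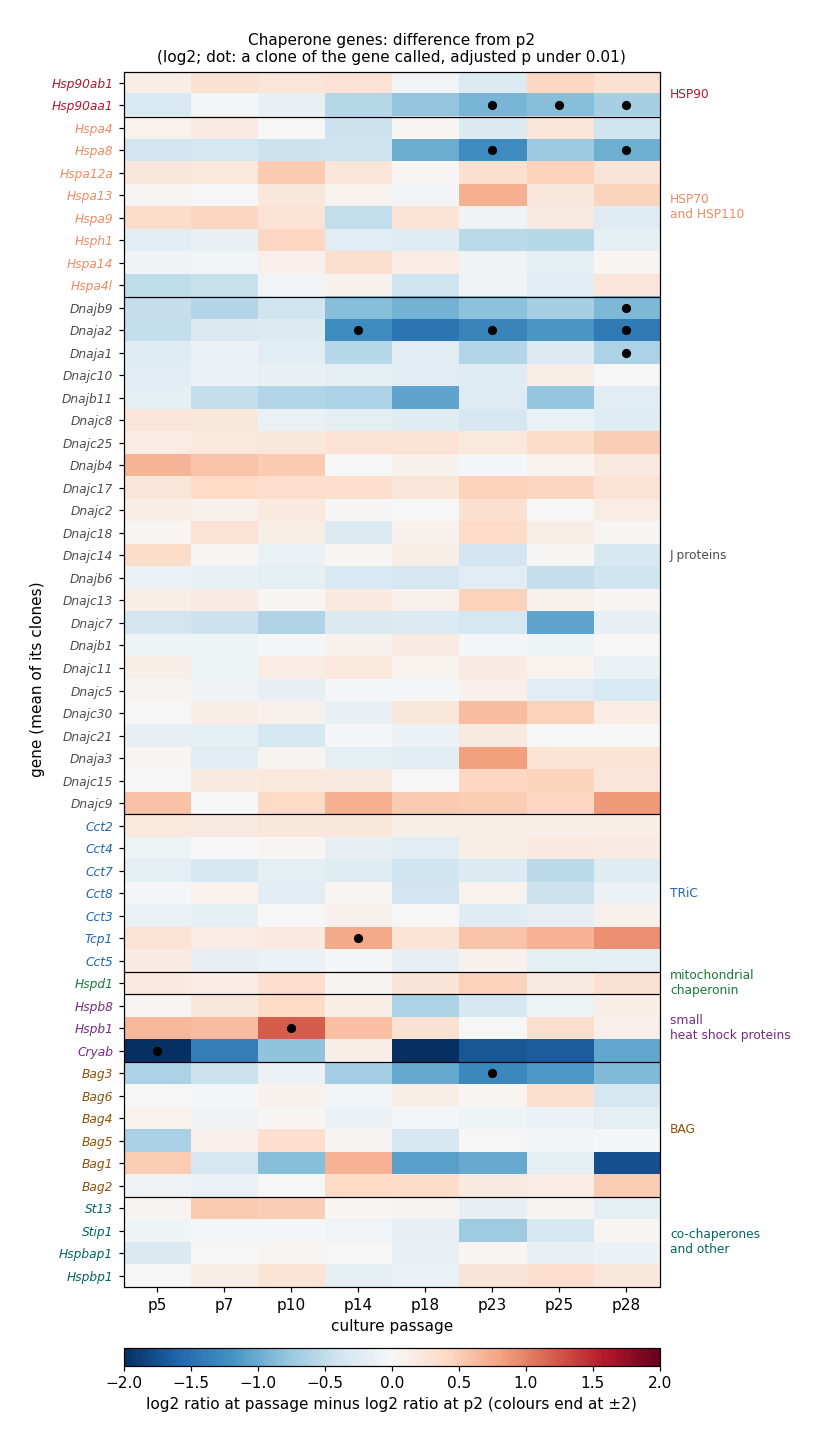
Difference from p2 (log2) of 54 chaperone genes (rows, mean of each gene's clones, ordered by family and by mean ratio to the newborn) at 8 passages (columns). Black dots mark genes with a clone called at an adjusted p under 0.01. Dnaja2 carries dots at p14, p23 and p28 and Cryab at p5, while most rows stay pale.

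The HSP90 genes parted. Hsp90aa1, the inducible cytosolic isoform, fell in the late passages, whereas Hsp90ab1, the constitutive isoform, was not called against p2 at any passage. The study lists Hsp90ab1 among its up-regulated genes at p14, a call that was not made here. Clone H3023G01 of Hsp90aa1 gave 1.37, 1.22, 1.35 and 1.05 on the p2 arrays, -0.048, 0.38, 0.18 and 0.10 at p23, and 0.21, 0.33, 0.57 and 0.41 at p25. Neither late passage overlapped with p2, and the differences were -1.09 ± 0.15 (SE, n = 4 and 4 arrays, adjusted p = 0.0054) and -0.87 ± 0.13 (adjusted p = 0.00985). Clone H3023F10 went from 1.34, 1.36, 1.48 and 1.82 at p2 to 0.78, 0.64, 0.61 and 0.58 at p28, a difference of -0.85 ± 0.14 (adjusted p = 0.00724). At p28 all 6 Hsp90aa1 clones lay below p2, by -0.85 to -0.41. Without scaling, these Hsp90aa1 differences were -0.80, -0.66 and -0.43, and none passed. With 1 array left out, the p23 call held only without the second direct p23 array, and the p25 and p28 calls held in 0 of 8 fits, while the differences ran from -1.20 to -0.99, -0.94 to -0.79 and -0.93 to -0.76. With array groups as a block, those of p23 and p25 were -1.03 (adjusted p = 0.278) and -0.82 (adjusted p = 0.323).

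Hsp90ab1 was above the newborn on all 35 arrays, with a lowest value of 0.025, a median of 0.86 and a highest of 1.48. Its 5 clones all lay above p2 at p28, by 0.063 to 0.71, and the nearest to a call was clone H3147E04 (0.71 ± 0.16, adjusted p = 0.0254), which lay further above p2 at p14 (0.94 ± 0.22, adjusted p = 0.0454). At p18 and p23, however, the mean of the Hsp90ab1 clones lay below p2 (-0.058 and -0.28), as did that of Hsp90aa1 (-0.79 and -0.92). Because both genes were read on the same arrays, their difference was taken within each array, a contrast chosen after the values were seen and given without a test. Hsp90aa1 minus Hsp90ab1 averaged 0.37 (SD 0.31) at p2, stood near 0 at p5, p7 and p10 (-0.056, 0.032 and -0.021), and was -0.49, -0.35, -0.27, -0.90 and -0.60 at p14, p18, p23, p25 and p28. The arrays of p14, p18, p25 and p28 did not overlap with those of p2, while at p23 they did, through 1 p2 array at -0.080. Between p2 and p28 the difference moved by -0.97 with scaling and by -1.02 without it. The 2 messages are similar in sequence, and cross-hybridization between their cDNA probes was not tested.

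**Figure D2:**
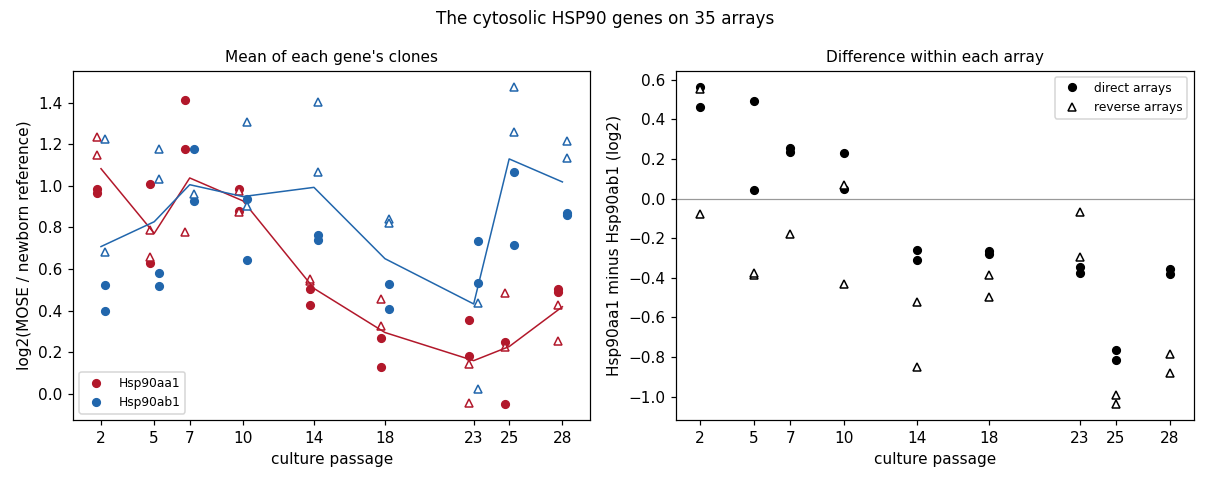
Left, log2(MOSE/reference) of Hsp90aa1 (red) and Hsp90ab1 (blue) on each of 35 arrays by culture passage, as the mean of each gene's clones, with lines through passage means. Right, their difference within each array, which lies between -0.080 and 0.57 at p2 and between -0.88 and -0.35 at p28 (filled circles, direct arrays; open triangles, reverse arrays).

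Among HSP70 genes, Hspa8, the constitutive cytosolic HSP70, fell, and no other member was called against p2. Clone H3012A07 gave 1.38, 1.37, 1.79 and 2.06 at p2 and 0.21, 0.26, 0.38 and 0.28 at p23, a difference of -1.36 ± 0.18 (adjusted p = 0.00495). Clone H3133H01 gave 1.81, 1.51, 2.05 and 2.35 at p2, -0.36, 0.37, 0.27 and 0.39 at p23, and 0.61, 0.65, 0.54 and 0.88 at p28. The late arrays lay wholly below those of p2, with differences of -1.76 ± 0.23 (adjusted p = 0.00498) and -1.26 ± 0.19 (adjusted p = 0.0044). These correspond to 0.294 and 0.417 of the p2 level. With 1 array left out, the p23 calls held in 1 and 2 of 8 fits (-1.43 to -1.30 and -1.95 to -1.58). Both calls held without the second direct p23 array, that of H3133H01 also without the second direct p2 array. The p28 call held in 3 of 8 (-1.35 to -1.18), each without 1 p2 array. The third clone, H3139E01, was scattered at p2 (0.97, -0.35, 1.65 and 2.18) and was not called at p23 (-0.66, adjusted p = 0.429). With array groups as a block, the p23 differences were -1.70 (adjusted p = 0.174) and -1.83 (adjusted p = 0.181). None of the 3 Hspa8 differences passed without scaling, where they ran from -1.27 to -0.72. The probes may also bind other HSP70 messages, which was not tested.

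Hspa4, an HSP110-type nucleotide exchange factor of the cytosol, had the highest mean ratio to the newborn of all members (1.05, SD 0.25 over 9 passage means) and was not called at any passage. Hsph1, the heat-inducible HSP110, ran from -0.75 through a median of 0.16 to 0.90 over the 35 arrays, with its highest passage mean at p10 (0.74) and its lowest at p25 (-0.24). Hspa9, the HSP70 of the mitochondrial matrix, ran from -0.72 through 0.20 to 0.96, with passage means between -0.30 at p14 and 0.61 at p7. The microsomal Hspa13 was highest at p23 (0.82, difference 0.71 ± 0.16, adjusted p = 0.0337). Of these, Hspa9, Hspa13 and Hsph1 passed the test over all passages given below, and none was called against p2.

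Among J proteins, Dnaja2, a cytosolic partner of Hspa8, fell at p14, p23 and p28. Clone H3011A07 gave 1.69, 1.90, 2.44 and 2.16 at p2. The same clone gave 0.58, 0.81, 0.27 and 0.53 at p14, 0.44, 0.63, -0.22 and 0.32 at p23, and 0.70, 0.54, 0.0945 and 0.14 at p28. Every one of these arrays lay below every p2 array, and the differences were -1.50 ± 0.19 (adjusted p = 0.00377), -1.76 ± 0.23 (adjusted p = 0.00442) and -1.68 ± 0.20 (adjusted p = 0.00197). At p18 and p25 they were -1.76 (adjusted p = 0.0102) and -1.52 (adjusted p = 0.0124), just short of the threshold. The second clone, J0915A06, went from 1.15, 1.48, 1.65 and 1.49 at p2 to 0.62, 0.16, 0.48 and 0.42 at p14 and to 0.31, 0.19, 0.53 and 0.21 at p28. Its differences were -1.02 ± 0.15 (adjusted p = 0.00799) and -1.13 ± 0.15 (adjusted p = 0.00268). Across the 9 passages the 2 clones correlated at r = 0.95, as a description of clones read on shared arrays. At p28 the levels corresponded to 0.312 and 0.456 of p2, and the gene then stood 0.34 above the newborn on the log2 scale.

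Of the 5 Dnaja2 calls, only that of H3011A07 at p28 was kept without scaling (-1.19, adjusted p = 0.00496). That clone kept its p28 call in all 8 fits that left out 1 array, and the other clone in 5 of 8, losing it without the second direct array of p2 or without the second direct or second reverse array of p28. The p14 calls held in 2 of 8 (without the first direct or the first reverse p2 array) and in 0 of 8, with differences of -1.57 to -1.43 and -1.14 to -0.91, and the p23 call in 1 of 8 (-1.89 to -1.62). Comparisons inside an array group gave -0.91 (adjusted p = 0.0901) and -1.03 (adjusted p = 0.0122) for the 2 clones at p14 against p7, and -1.63 (adjusted p = 0.0342) for H3011A07 at p18 against p2. With these array groups as a block, the p14 difference of J0915A06 became 0.12 (adjusted p = 0.956), and those of H3011A07 were -2.04 at p14 (adjusted p = 0.14) and -2.30 at p23 (adjusted p = 0.0695).

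Dnaja1, the other abundant cytosolic partner of HSP70, went from 1.20, 1.16, 1.62 and 1.30 at p2 to 0.67, 0.32, 0.50 and 0.45 at p28 with clone H3026D10. The groups did not overlap, and the difference was -0.84 ± 0.14 (adjusted p = 0.00863). Its other clones gave -0.51 and -0.54 and were not called. Dnajb9, an endoplasmic reticulum J protein of the unfolded protein response, went from 1.36, 1.23, 1.76 and 1.64 to 0.60, 0.33, 0.82 and 0.24 with clone H3078B03, again without overlap, a difference of -0.996 ± 0.18 (adjusted p = 0.00971). Its second clone gave -0.80 (adjusted p = 0.108). Neither the Dnaja1 nor the Dnajb9 call held when any 1 array was left out (-0.92 to -0.75 and -1.14 to -0.85). Without scaling the 2 called clones gave -0.48 and -0.60 and did not pass.

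The remaining J proteins were not called against p2, and 12 of all 23 lay above p2 at p28 and 11 below. Dnajc9, a histone chaperone, had the largest positive J protein differences at p14 (0.71, adjusted p = 0.0366) and p28 (0.85, adjusted p = 0.0124), from a p2 mean of -0.88. At p23 that of the mitochondrial Dnaja3 was larger (0.81, adjusted p = 0.0213). Dnajc25 was next at p28 (0.49). Dnajb11, which assists the HSP70 of the endoplasmic reticulum, was among the 5 lowest members at p14 (-0.63) and lay at 0.57 at p28, against 0.80 at p2. Its lowest passage mean was that of p18 (-0.26), with arrays of -0.43, -0.39, -0.17 and -0.060. These all lay below the newborn and below every p2 array, and the difference was -1.06 ± 0.22 (adjusted p = 0.0543). At p25 the difference was -0.77 (adjusted p = 0.129), and the lowest single array of the gene was there (-0.44). For Dnajc7, which also binds HSP90, clone H3018D08 gave 0.12 at p28. Its other clone was dim, above background on 30 of 35 arrays and marked on 8, with p2 arrays of -0.73, 4.86, -0.36 and -0.11.

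Bag3, the BAG protein that couples HSP70 to selective autophagy, fell at p23. Its single clone gave 1.03, 1.24, 1.65 and 1.34 at p2 and 0.087, -0.040, 0.046 and 0.011 at p23, without overlap, a difference of -1.29 ± 0.16 (adjusted p = 0.00359; -0.98 and adjusted p = 0.0188 without scaling). The call held in 2 of 8 fits that left out 1 array (-1.37 to -1.21), namely without the first reverse p2 array or the second direct p23 array. With array groups as a block, the difference was -1.71 (adjusted p = 0.0851). Its p14 mean, 0.63, includes 1 array at -0.032. Bag2, an inhibitor of the ubiquitin ligase that acts on HSP70 clients, was the member furthest below the newborn (-0.50), with differences of 0.41 at p14 and 0.51 at p28. Bag1 had the lowest p28 value of all members, -1.75, but this came from a dim clone, which was above background on 19 of 35 arrays and was marked by the scanner program on 31. The other clone of Bag1 gave 0.16. Of the co-chaperones, St13 ran from -0.19 through 0.59 to 1.24 over the arrays and Stip1 from -0.35 through 0.36 to 1.01, and the Stip1 difference at p23 was -0.71 (adjusted p = 0.0233). St13 had its highest passage means at p7 (0.97) and p10 (0.93).

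The TRiC ring did not move as one. Tcp1, its alpha subunit, rose at p14: clone H3023G04 gave -0.46, -0.31, -0.75 and -0.88 at p2 and 0.50, 0.35, 0.45 and 0.26 at p14, a difference of 0.99 ± 0.15 (adjusted p = 0.0085) without overlap. The second clone gave 0.53 ± 0.13 (adjusted p = 0.0527). At p28 the clones stood 1.13 ± 0.22 and 0.70 ± 0.16 above p2 (adjusted p = 0.0133 and 0.0246), and r between them over 9 passages was 0.91. The p14 call held without scaling (0.89, adjusted p = 0.00561) and in 0 of 8 fits that left out 1 array, where the difference ran from 0.94 to 1.04. With array groups as a block, it was 0.49 (adjusted p = 0.728).

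None of the other subunits, which share the ring with Tcp1 in equal number, was called against p2, although 1 clone of Cct4 (adjusted p = 0.00258) and that of Cct8 (adjusted p = 0.00558) passed the test over all passages given below. Over the 35 arrays Cct2 had a lowest, median and highest value of -0.28, 0.22 and 0.93, Cct4 of -0.24, 0.17 and 0.66, and Cct7 of -0.59, 0.16 and 0.69. Cct3 had -0.44, 0.0053 and 0.57, Cct5 had -0.80, -0.14 and 0.29, and Cct8 had -0.48, 0.016 and 0.59. Tcp1 itself ran from -0.74 through -0.11 to 0.61. The lowest differences from p2 were those of Cct7 (-0.40 at p18 and -0.52 at p25) and Cct8 (-0.39 and -0.42). The Cct7 value at p25 includes clone H3110F02, of low signal and marked on 9 arrays. It read -2.43 on the second reverse p25 array, which also gave the lowest Cct7 value of -0.59. The other Cct7 clones went from 0.32, 0.74 and 0.25 at p2 to 0.21, 0.21 and -0.10 at p25. The largest family median of TRiC at any passage was -0.17, at p25, and the p14 and p28 medians were 0.041 and 0.080.

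Small heat shock proteins gave the earliest calls and changed direction from passage to passage. Cryab, alpha B-crystallin, gave 0.40, 0.65, 1.20 and 0.81 at p2 and -1.28, -1.73, -1.45 and -1.39 at p5, without overlap, a difference of -2.23 ± 0.18 (adjusted p = 0.00195). This is 0.213 of the p2 level and was the largest difference called for any member. The differences at p7 and p10 were -1.38 and -0.80, that at p14 was 0.12, and those at p18, p23, p25 and p28 were -2.02, -1.72, -1.66 and -1.04. None of these passed (adjusted p from 0.0128 at p25 to 0.108 at p7, leaving aside p14). Cryab at p25 lay -1.78 below p14 (adjusted p = 0.0179). The p5 call held without scaling (-1.87, adjusted p = 0.00074) and in 7 of 8 fits that left out 1 array (-2.34 to -2.12), all but that without the first reverse p5 array, while p5 and its array group cannot be told apart.

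Hspb1, HSP25 of the mouse, gave -0.52, -0.49, -0.73 and -0.67 at p2 and 0.52, 0.46, 0.67 and 0.79 at p10, a rise of 1.22 ± 0.12 (adjusted p = 0.00337) to 2.32 times the p2 level, without overlap. The call held without scaling (adjusted p = 0.000986) and in 2 of 8 fits that left out 1 array (1.19 to 1.25), those without the first reverse p2 or the second direct p10 array. With array groups as a block, the difference was 1.05 (adjusted p = 0.164). At p14 the difference was 0.61, and by p28 the mean was -0.51, near that of p2. Hspb8, the partner of Bag3, had passage means between -0.18 at p18 and 0.85 at p10 and was not called against p2.

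**Figure D3:**
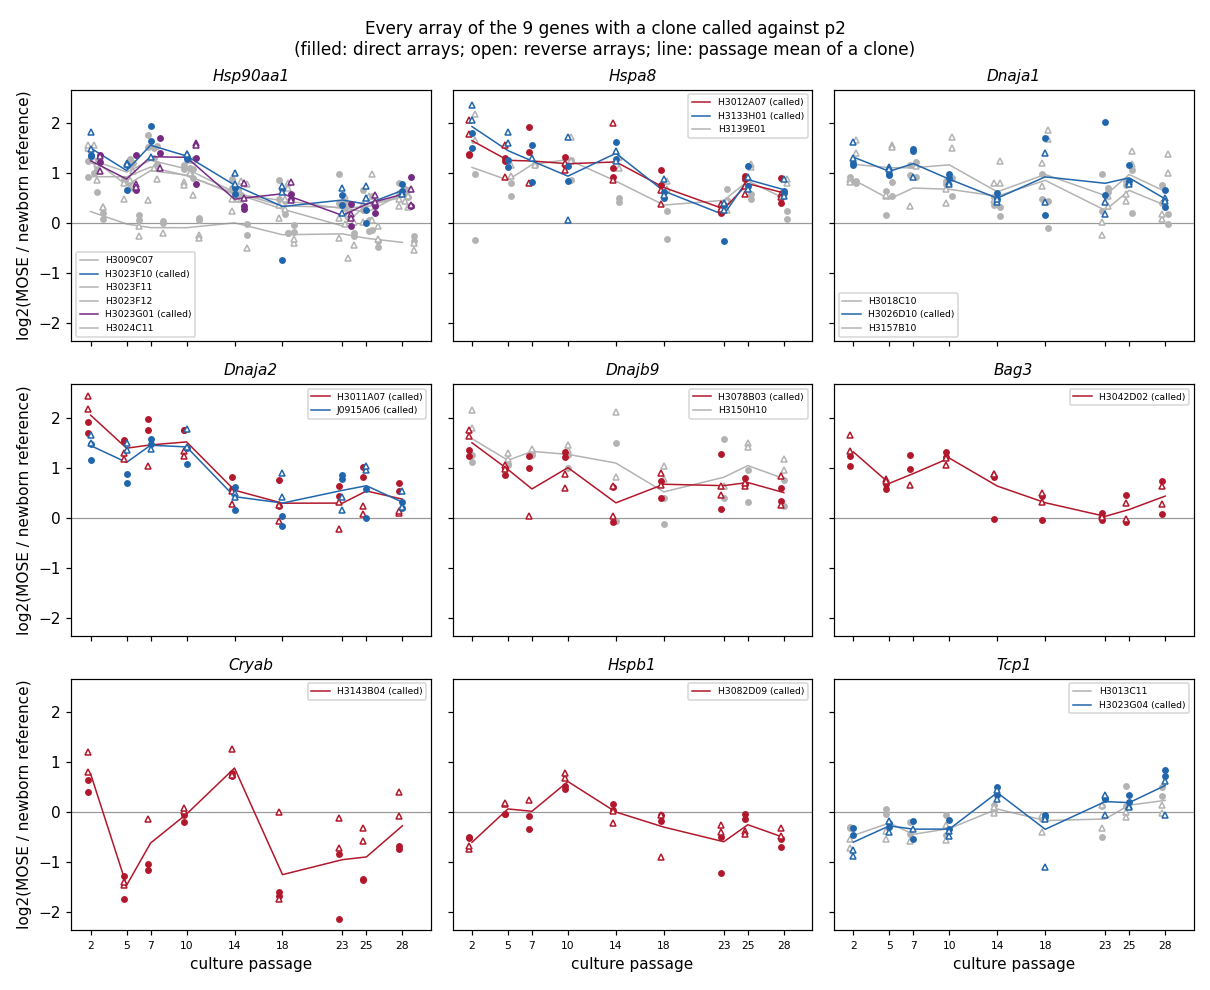
Log2(MOSE/reference) by culture passage on every array for the 9 genes with a clone called against p2 (colour, clones called; grey, other clones of the gene; filled circles, direct arrays; open triangles, reverse arrays; lines, passage means). Dnaja2, Hspa8, Hsp90aa1 and Bag3 start above 1 at p2 and end nearer 0, Cryab drops at p5 and stands at 0.88 at p14, and Tcp1 crosses 0.

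Mitochondrial members stood mostly below the newborn. Hspd1, the chaperonin, was negative at all 9 passage means (from -0.54 at p2 to -0.079 at p23) and on 34 of 35 arrays, with a lowest value of -0.81, a median of -0.33 and a highest of 0.15. Its 3 clones averaged -0.44, -0.29 and -0.25 over the passages, all called. Clone H3030A03 lay above p2 by 0.83 at p23 (adjusted p = 0.0328) and by 0.71 at p28 (adjusted p = 0.0314), while H3023B11 gave 0.23 and 0.36 and G0100A10 gave 0.32 and -0.16. The mitochondrial J proteins Dnaja3, Dnajc15 and Dnajc30 were also called below the newborn over the 9 passages (-0.39, -0.43 and -0.24). Dnaja3 nevertheless stood above it on all 4 arrays of p23 (0.29, 0.58, 0.14 and 0.31), and Dnajc30 had means of 0.21 at p23 and 0.057 at p25. Both passed the test over all passages (adjusted p = 0.000238 and 0.006). Dnajc30 was not on the design's list of mitochondrial members. Dnajc11, which was on it, was not called against the newborn (-0.099). Hspa9 was the exception, called above it (0.27 ± 0.094, adjusted p = 0.0413). Dnajb9, Dnajb11 and Dnajc10 of the endoplasmic reticulum lumen and the microsomal Hspa13 were called above the newborn (0.91, 0.33, 0.46 and 0.30). This grouping was made after their values were seen, and it does not take in J proteins of the endoplasmic reticulum membrane.

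Over all members, the mean of the 9 passages was tested against the newborn (limma on 9 passage means, adjusted p under 0.05). Of 96 member clones 63 were called (65.6%, background 40.4%), 47 higher (background 19.4%) and 16 lower (background 21%). By gene, 24 were higher, 10 lower, 1 had clones called both ways (Cct3, from -0.37 to 0.30), and 19 were not called. The highest were Hspa4 (1.05), Hspa8 (0.95), Dnajb9 (0.91), Dnaja2 (0.89) and Hsp90ab1 (0.86), and the lowest were Bag2 (-0.50), Dnajc9 (-0.44), Cryab (-0.43), Dnajc15 (-0.43) and Dnaja3 (-0.39). Cryab was not called, since its passage means ranged widely. In all, 35 of 54 members had a mean above 0, against 3667 of 7390 genes. This ratio compares cultured cells of 1 type with a whole animal of the other sex, and its components cannot be told apart.

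**Figure D4:**
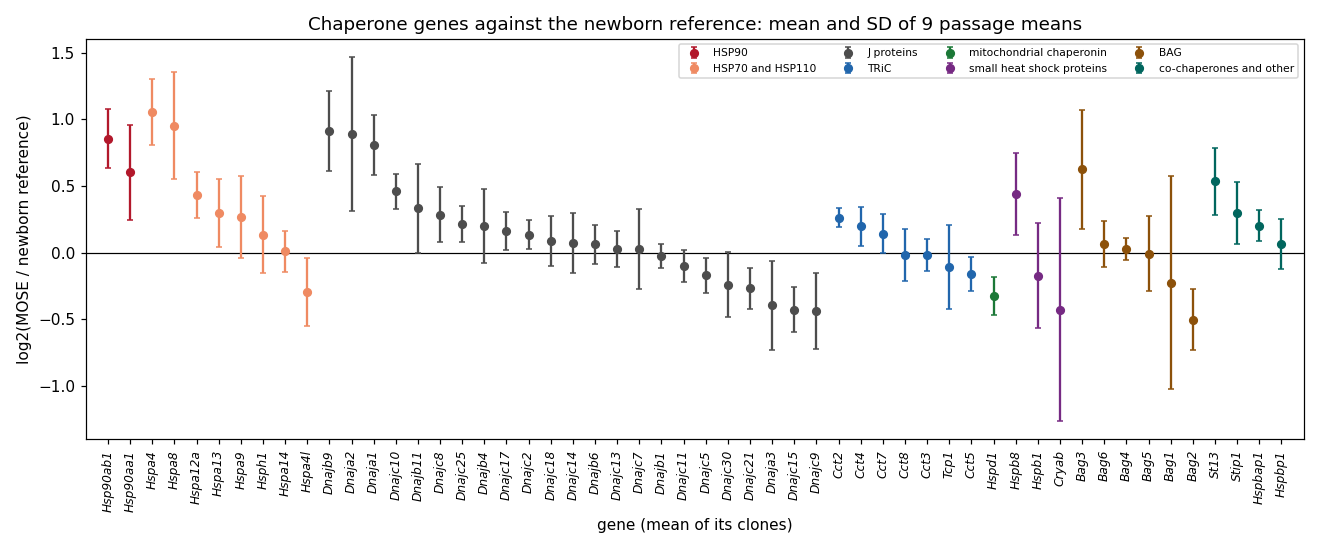
Mean log2(MOSE/reference) of the 9 passage means for each of 54 chaperone genes, with the SD over passages as error bars, coloured by family. Hspa4, Hspa8, Dnajb9, Dnaja2, Hsp90ab1 and Dnaja1 lie highest, Bag3 and Hsp90aa1 follow, Hspd1 lies below 0, and Cryab and Bag1 have the widest bars.

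When all 9 passages were compared at once (moderated F test over 35 arrays, adjusted p under 0.01), 36 member clones of 27 genes were called (37.5%, background 20.1%). By gene, they were both HSP90 genes, 6 of 8 HSP70 and HSP110 genes, all 3 small heat shock genes and 8 of 23 J proteins. The others were 3 of 7 TRiC genes, 3 of 6 BAG genes, Hspd1 and 1 of the 4 remaining genes. The background is a share of clones. That of genes was not computed, and genes with several clones, such as the HSP90 genes, had more chances of a call. The strongest were Dnaja2, Cryab, Hsp90aa1 and Bag3. With no scaling 21 member clones were called, a count given without the share over all clones. A trend on passage number, fitted on 9 passage means, was called for 6 member clones of 4 genes, all downward (background 2.77% in either direction, 1.34% downward). These were Dnaja2 (-0.063 log2 per passage, adjusted p = 0.0253), Hspa8 (-0.040, adjusted p = 0.0316), 3 clones of Hsp90aa1 (-0.039, -0.043 and -0.0315) and Dnajb6 (-0.021, adjusted p = 0.0426), and without scaling 0 were called. The trend calls ran from 0 without p2, p7 or p23 to 9 without p14, with 1 without p5 or p10, 2 without p25, 3 without p18 and 4 without p28.

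No member clone was called at p14 against the mean of the other passages (background 0.0656%). An unadjusted p under 0.05 was reached by 5 of 96 member clones and by 1057 of all 15254. Late passages set against p14 gave 0 member calls at p18 (background 0.0131%), p23 (background 0.00656%), p25 (background 0.0328%) and p28 (background 0%), with 11, 16, 14 and 10 at an unadjusted p under 0.05. Over all 15254 clones these unadjusted counts were 1647, 2427, 2424 and 1423. Within array groups, 0 were called at p14 (background 0.846%), p23 (background 0.19%) and p25 (background 0%) against p7, nor at p18 against p2 (background 0%), with 22, 24, 15 and 24 unadjusted. Over all clones the unadjusted counts there were 2874, 2269, 1620 and 2302. In a single fit of all 35 arrays, however, member calls against p14 numbered 2 at p18, 6 at p23 and 1 at p25, with 0 for p28. Whether member clones were called against p14 thus depended on the arrays in the fit. The shares over all clones in that fit are not given here.

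The called falls started from high p2 levels, and most of them did not pass without scaling. Clones called lower began at p2 means of 1.25 to 2.05 (0.77 for Cryab), and in 15 of 17 calls the later mean lay nearer to 0 than the p2 mean. A fall from well above 0 mostly ends nearer to 0, so this count follows largely from which clones were called. The same share over all called clones is not given here. Single marker genes moved either way between p2 and p23. Wt1 went from 5.03 to 1.93 and Hba-a1, an adult globin gene, from -6.01 to -3.69. Away from 0 went Msln of the epithelial and mesothelial list (0.80 to 1.35) and the globin genes Hba-x (-0.96 to -1.27) and Hbb-y (-1.15 to -1.49). These genes are examples, and the markers moving each way were not counted. Before scaling, p2 had the lowest mean spread of the 9 passages, with single p2 arrays from 0.254 to 0.362, while the narrowest single array was at p18. With no scaling, 4 of the 17 calls passed: Cryab at p5, Hspb1 at p10, Tcp1 at p14 and Dnaja2 at p28. All 17 differences kept their sign there. The part of the reduced spread in the falls was not tested beyond these alternatives.

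**Figure D5:**
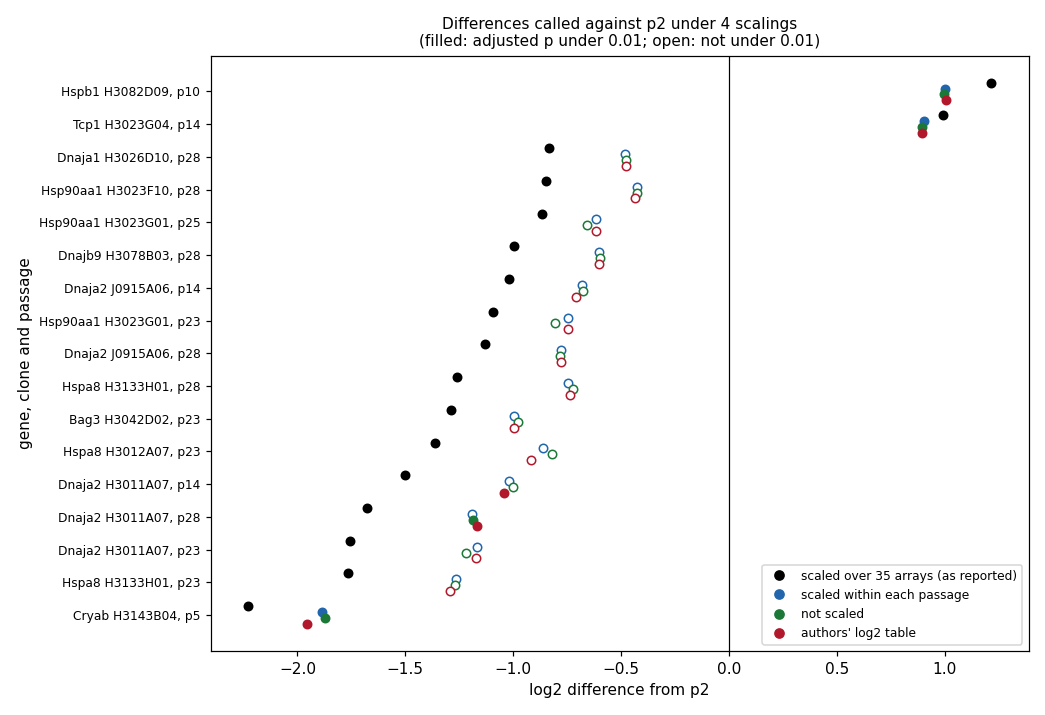
Log2 difference from p2 for the 17 calls (gene, clone and passage) under 4 scalings of the arrays. Filled circles passed an adjusted p of 0.01 and open circles did not. All 15 falls lie nearer 0 when arrays are not scaled over all 35, with Cryab still past the threshold, and the rises of Hspb1 and Tcp1 pass under each. Without scaling, the p28 fall of Dnaja2 clone H3011A07 also passes.

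Other genes of chaperone pathways were read for comparison, namely HSP90 cofactors, prefoldin and tubulin cofactors and mitochondrial import and protease genes, none of them members. The heat shock factor genes of the list were not among those found. Of 38 listed, 32 were on the array and 0 were called at any of the 8 passages. Their median difference was 0.014 at p14, 0.23 at p23 and 0.097 at p28, against 0.027, 0.047 and 0.041 over all genes. Ahsa1, which stimulates the HSP90 ATPase, lay at 0.30 at p2 and -0.16 at p28, and Cdc37, which brings kinases to HSP90, at 0.24 and 0.26.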

How the data were processed

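Arrays held NIA-15 K mouse cDNA clones. The authors read the slides with GenePix, and the deposited scanner files give the intensity and local background of both channels for each spot, with a spot flag score set by the program. The deposited table of log2 ratios, which the authors made with background correction, loess and scale adjustment in DNMAD, served as an alternative: 14703 of 15023 rows were matched to clones, 94 of the 96 member clones among them (median r 0.969).

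Intensities were processed in R 4.3.3 with limma 3.58.1: background subtraction with a floor of 0.5, loess in each of the 32 print-tip blocks, scale normalization across the 35 arrays, reverse arrays turned. Each dye orientation had equal weight. Each passage was compared with p2 as in the study (adjusted p under 0.01, Benjamini-Hochberg over 15254 clones), and tests on 9 passage means used 0.05. Code was tested on simulated data. Figures and motif searches used Python 3.11.15. No column was left without a sample.

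Members, lists and tests were chosen with earlier results of these data known. A gene counts as called if any clone is. Named are members past a threshold, the isoforms and subunits listed in the design, and the 5 highest and lowest by mean ratio and by difference at p14 and p28. Array values are given for clones called against p2, and other members by range. Alternatives covered background, loess, scaling, starting values, arrays in the fit, dye, spots, threshold and left-out arrays.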

Additional observations from a re-analysis of the deposited data

Results flagged for a closer look

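Among 15 clones called in a comparison with p2 or along the passages, 120 groups of 4 arrays were checked for an array far from the other 3 (its gap to the nearest as a share of the range, Dixon's 95% limit), and 8 groups passed, where chance alone gives about 1 group in 20. In Hsp90aa1 clone H3023F10 the second direct array of p5 read 0.67 against 1.17 to 1.19 on the others, and that of p18 read -0.73 against 0.61 to 0.75. In Tcp1 clone H3023G04 the second reverse array of p18 read -1.09 against -0.13 to -0.057. Dnaja1 clone H3026D10 read 1.17 on the second direct array of p25, against 0.79 to 0.85. Bag3 read -0.032 on the first direct array of p14, against 0.81 to 0.88. Hspb1 read -0.90 on the first reverse array of p18, against -0.18 to -0.056. Cryab read 1.26 on the second reverse array of p14, against 0.73 to 0.79, and 0.0019 on that of p18, against -1.73 to -1.59. None of these 8 groups belongs to a call of the same clone against p2.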

How the results depend on the processing

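Counts of chaperone clones called depended on processing, and the cause of each change below was not tested. The shares over all clones under these other settings, here and in the Results, are not given. The counts therefore show how member calls moved with processing, not whether chaperones were called more often than other clones. As reported, 1 was called at each of p5, p10 and p25, 3 at p14, 0 at p7 and p18, 5 at p23, and 6 at p28 and for the trend. With normexp background correction, p18 gave 1 and the trend 10. With 1 loess per array, p5, p10 and p25 gave 0, p14 gave 1, p28 gave 2 and the test over all passages 19 in place of 36. With no scaling, p23, p25 and the trend gave 0, p28 gave 2 and the test over all passages 21. With scaling within each passage, p23, p25 and the trend gave 0, p14 and p28 gave 1 and the test over all passages 21. With the deposited log2 table, p23 gave 0, p28 gave 2, the trend 1 and the test over all passages 21. The test over all passages was tried under other settings after the data were seen, as were the HSP90 difference without scaling and without clone H3024C11, which differed in level from the other Hsp90aa1 clones.

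With all 35 arrays in a single fit, p10 gave 2, p14 gave 8, p18 gave 11, p23 gave 16, p25 gave 9 and p28 gave 11. In that fit p18, p23 and p25 against p14 gave 2, 6 and 1, p14, p23 and p25 against p7 gave 2, 9 and 3, and p18 against p2 gave 11. With dye orientation as a covariate, p14, p18, p25 and p28 gave 6, 3, 6 and 11. With marked spots left out, p14, p18 and p25 gave 5, 1 and 7, and p28 gave 9. With dim clones left out, p14, p18, p25 and p28 gave 5, 1, 6 and 9, and the trend 11. At an adjusted p under 0.05, p5 and p10 each gave 2, p14 gave 11, p18 gave 6, p23 gave 15, p25 gave 12 and p28 gave 18.

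With the replicate block, in which arrays of the same orientation and number are paired only by that number, p5, p10, p14, p23 and p25 gave 0 calls and p28 gave 2. With array groups as a block, p10, p14, p23 and p25 gave 0 and p18 gave 5, and the p14 difference of Dnaja2 clone J0915A06 became 0.12 in place of -1.02, the only named difference to change sign. At p7 the block gave 0, and it could not be fitted at p5 and p28. The HSP70 and HSP110 median was -0.073 at p14 and 0.066 without scaling. With the deposited table that median at p28 was 0.0175 (-0.074 as reported), and the BAG median was -0.10 (-0.27 as reported).

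With 1 array left out, counts ran from 0 to 1 at p5, p10 and p14, from 0 to 5 at p23, at 0 at p25 and from 1 to 3 at p28. With 1 passage left out, the trend ran from 0 to 9 and the calls against the newborn from 57 to 62. The calls against the newborn also stayed between 57 and 63 under the other settings. No array of a passage comes from a second culture, which limits every comparison to these RNA preparations.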
